A study of Sus scrofa with 12 samples.

Results

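The left ventricular septum was compared with the left ventricular free wall in pigs, over paced and control animals together. For each gene the septum minus free wall difference was taken within paced pigs and within control pigs, and the 2 differences were averaged. Genes whose difference had the same sign in both treatments are described. They numbered 5814 of the 10007 named genes tested (58.1%), with 3199 higher and 2615 lower in septum. Another 4048 genes had opposite signs and 145 had a difference of 0 in at least 1 treatment.

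The 12 arrays formed 4 groups of 3: septum of paced pigs, free wall of paced pigs, septum of control pigs and free wall of control pigs. All were samples of left ventricle from 13-month-old pigs, collected 6 months after surgery, and 6 pigs per treatment were enrolled. Paced pigs (EXP) had complete atrioventricular block, made with an ablation catheter, and a pacemaker in VDD mode, which paces the ventricle in step with sensed atrial beats. Control pigs (CTL) were a sham group of the same age, and all pigs were female. The labels place a ventricular lead on the right ventricular septum and an atrial lead in the right atrial appendage of all pigs. They do not say separately whether sham pigs carried these leads. No label ties an array to an animal, so p-values reflect only the scatter of the 12 arrays.

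The septum and the free wall form 1 muscular chamber but differ in their setting. The septum is shared by both ventricles and carries the main branches of the conduction system, while the free wall faces the outside of the heart. Both consist mainly of cardiomyocytes by volume, with endothelial cells, fibroblasts, pericytes and immune cells between them. A signal from whole tissue cannot tell a change in the number of cells of a type from a change in RNA per cell.

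The values are log2 signals after robust multi-array averaging (RMA), which corrects background and equalises the distribution of signals between arrays. Medians of the arrays lay between 4.31 and 4.45. Free wall paced array 2 stood apart at -45.3 on the first principal component, against -19.2 to 22.3 in the other arrays, and had an array weight of 0.240 against 0.631 to 1.68. On the second component septum control array 1 (24.3) and free wall control array 1 (27.2) stood apart from the other 10, at -16.3 to 7.76. Cardiomyocyte genes were among the bright ones, which fits the labelled tissue. The slow myosin heavy chain MYH7 averaged 12.57 ± 0.03 in septum and 12.48 ± 0.05 in free wall (SD, n = 6 each), and the Z-disc protein ACTN2 averaged 11.79 ± 0.06 and 11.69 ± 0.07. Markers of blood and platelets had a list mean of 3.09 to 3.61 over the 12 arrays, near the cut below which probe sets were not tested (a mean of 2.998). That mean rests on 3 tested markers of 13 listed, of which 6 were matched, so it does not measure the blood content of the samples.

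Of 20668 probe sets tested, 2 passed a limma adjusted p under 0.05 (0.00968%), and both were lower in septum. One is LOC100737875, an uncharacterised protein-coding locus. It read 4.15, 4.23 and 4.16 in paced septum, 5.10, 5.37 and 5.47 in paced free wall, 4.44, 4.29 and 4.86 in control septum, and 5.78, 5.28 and 5.66 in control free wall. All 6 septum arrays were below all 6 free wall arrays. LOC100737875 was 2.13-fold lower (log2 -1.09, SE 0.12, limma adjusted p = 0.0274), with nearly equal differences of -1.13 in paced and -1.04 in control pigs. The other is probe set 15347989, which has no listed gene. It read 3.12, 3.06 and 2.99 in paced septum, 3.78, 3.57 and 3.53 in paced free wall, 2.72, 2.91 and 2.95 in control septum, and 3.97, 3.64 and 4.11 in control free wall. The arrays of both regions did not overlap, but the septum values lay near the cut for dim probe sets (2.998). The septum values averaged 2.96, under this cut, and the free wall values averaged 3.77. Probe set 15347989 was thus tested through its free wall signal. Its signal was lower by 1.75-fold in septum (log2 -0.81, SE 0.10, limma adjusted p = 0.0274), a fold that is a lower bound where the septum signal is background. Both are named because they passed.

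Both calls were lost under several alternatives. With the SD of the array as a covariate the limma adjusted p was 0.0549 for each, and probe set 15347989 also missed the threshold in an additive fit (0.0929) and with quantile normalization repeated (0.0765). Each was also lost when any of several arrays was left out. For LOC100737875 the limma adjusted p was 0.108, 0.0515 and 0.140 without septum paced arrays 1, 2 and 3, and 0.0549 without free wall paced array 3. It was 0.136 and 0.0920 without septum control arrays 1 and 2, and 0.0640 and 0.0990 without free wall control arrays 1 and 3. Its difference stayed between -1.17 and -1.03 in all 12 such fits. Probe set 15347989 passed without free wall paced array 2 (adjusted p = 0.0488) or free wall control array 2 (0.0111) and missed the threshold in the other 10 fits, at up to 0.140.

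The next probe sets lay just outside the threshold and were higher in septum. An adjusted p under 0.1 was reached by 8 probe sets (0.0387%), 6 higher and 2 lower, and the 6 were SOCS2, KCNA5, PDIA2, RNF144B and the unnamed probe sets 15287650 (log2 0.76, SE 0.11) and 15198735 (0.69, SE 0.11). An unadjusted p under 0.05 was reached by 1619 probe sets (7.83%), of which 991 were higher (4.79%) and 628 lower (3.04%). Among genes the same rule gave 546 higher (5.46%) and 284 lower (2.84%). Differences were mostly small: the median size over genes was 0.09 on the log2 scale, with a median SE of 0.11, and 9 genes exceeded 2-fold. These 9 were XDH, PRLR, CISH, RNF144B, KCNA5, GRAMD1B and MYL1 on the higher side, and LOC100737875 and FOXP2 on the lower side. XDH, CISH, RNF144B and GRAMD1B stand outside the rule for named genes and were chosen after their values were seen.

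**Figure D1:**
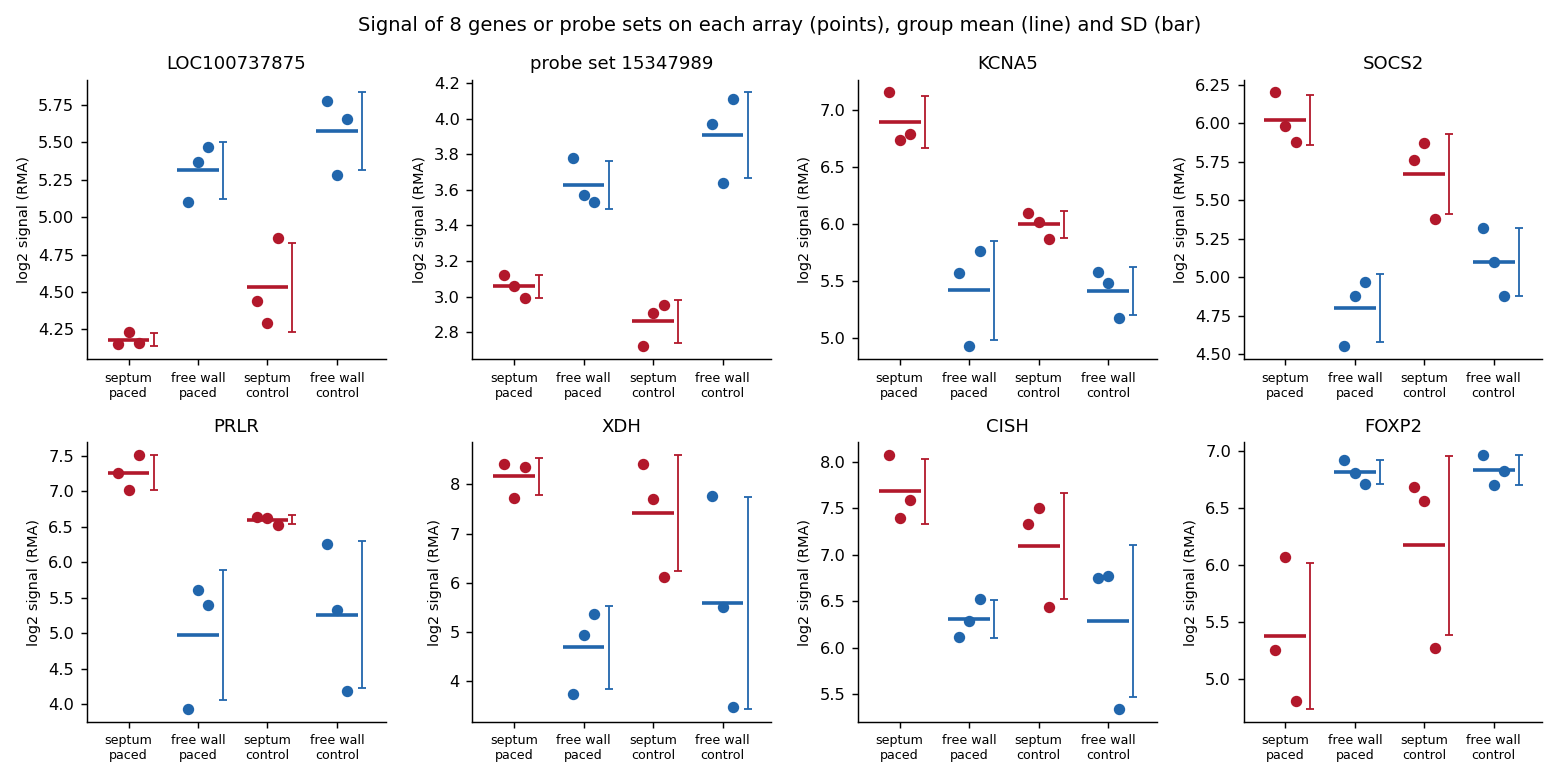
Log2 signal (vertical axis) of the genes with the largest or most clearly separated region differences on each of the 12 arrays, in septum and free wall of paced and then control pigs, with points from left to right for arrays 1 to 3, a line at each group mean and a bar for its SD. LOC100737875, SOCS2, KCNA5 and PRLR have no overlap between the 6 septum and 6 free wall arrays, while XDH overlaps in control pigs.

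PRLR, SOCS2 and CISH, with some of the larger septal signals, belong to receptor signalling through the JAK kinases and STAT factors. In this pathway a hormone or cytokine receptor activates a JAK kinase, the kinase activates STAT factors, and these switch on genes of the SOCS family, whose products damp the receptor again. PRLR, the prolactin receptor, read 7.26, 7.02 and 7.51 in paced septum, 3.93, 5.61 and 5.39 in paced free wall, 6.64, 6.63 and 6.53 in control septum, and 6.26, 5.32 and 4.19 in control free wall. Septum arrays were all above free wall arrays, and the free wall arrays were the more scattered (SD 0.89 against 0.40 in septum). The difference of PRLR was 3.52-fold (log2 1.81, SE 0.34) and did not pass (limma adjusted p = 0.254).

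SOCS2, an inhibitor induced by growth hormone and prolactin receptors, read 6.20, 5.98 and 5.88 in paced septum, 4.55, 4.88 and 4.97 in paced free wall, 5.76, 5.87 and 5.38 in control septum, and 5.32, 5.10 and 4.88 in control free wall. The regions did not overlap, and the lowest septum value (5.38) was close to the highest free wall value (5.32), both in control pigs. The difference of SOCS2 was 1.86-fold (log2 0.90, SE 0.12, limma adjusted p = 0.0661). It was 1.22 in paced and 0.57 in control pigs.

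CISH, a related inhibitor, read 8.07, 7.39 and 7.59 in paced septum, 6.11, 6.29 and 6.52 in paced free wall, 7.33, 7.50 and 6.44 in control septum, and 6.75, 6.77 and 5.34 in control free wall. Its regions were apart in paced pigs and overlapped in control pigs. The difference of CISH was 2.13-fold (log2 1.09, SE 0.26, limma adjusted p = 0.309). Other genes of the pathway were taken from a list of prolactin and growth hormone receptor signalling drawn up after these values were seen. Of its 15 tested members 7 were above 0 and 8 below, with a median of -0.01 against 0.01 over all genes. Beside the 3 named, the kinase JAK2 stood at -0.33 (SE 0.11), the growth factor IGF1 at -0.57 (SE 0.21), the growth hormone receptor GHR at -0.10 (SE 0.10), STAT5A at -0.07 (SE 0.13) and SOCS4 to SOCS7 between -0.24 and -0.01. PIM1, a kinase induced by STAT factors, stood at 0.34 (SE 0.18).

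IL4R, the receptor of interleukin 4, read 6.00, 5.38 and 5.63 in paced septum, 4.79, 4.82 and 4.98 in paced free wall, 5.56, 5.34 and 5.57 in control septum, and 5.18, 5.14 and 5.02 in control free wall. The septum arrays all stood above the free wall arrays. The difference of IL4R was 1.51-fold (log2 0.59, SE 0.11, limma adjusted p = 0.199). STAT6, the factor that acts below this receptor, stood at 0.21 (SE 0.08), and the receptor partners IL2RG and IL13RA1 at 0.16 (SE 0.11) and 0.05 (SE 0.08). The genes of this receptor's pathway were listed after the values were seen.

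XDH, the enzyme that makes uric acid in purine breakdown, had the largest difference of all tested genes. It read 8.40, 7.73 and 8.35 in paced septum, 3.75, 4.95 and 5.37 in paced free wall, 8.42, 7.70 and 6.12 in control septum, and 7.77, 5.51 and 3.48 in control free wall. The paced regions were far apart, while free wall control array 1 (7.77) lay above 2 of the 3 control septum arrays. The difference of XDH was 6.27-fold (log2 2.65, SE 0.63) and did not pass (limma adjusted p = 0.299). It was 3.47 in paced and 1.83 in control pigs, and the mean ranged from 2.12 to 3.19 over the alternatives. Free wall control array 1 was also the highest free wall array for PRLR, at 6.26.

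KCNA5, the voltage-gated potassium channel best known from atrial muscle, read 7.15, 6.73 and 6.79 in paced septum, 5.57, 4.93 and 5.76 in paced free wall, 6.10, 6.02 and 5.87 in control septum, and 5.58, 5.48 and 5.18 in control free wall. All septum arrays were above all free wall arrays. The difference of KCNA5 was 2.04-fold (log2 1.03, SE 0.14, limma adjusted p = 0.0717). It was 1.47 in paced and 0.58 in control pigs. KCNA4, a channel of the transient outward current, stood at 0.83 (SE 0.24), and CACNA1C, the L-type calcium channel, at 0.29 (SE 0.08). For CACNA1C the regions were apart within each treatment, at nearly the same difference (0.29 in paced and 0.30 in control pigs). KCNJ4, an inward rectifier, stood at 0.35 (SE 0.17). Of 34 tested ion channel and gap junction genes 21 were above 0 (61.8%, against 54.1% of all genes), with a median of 0.05. Members of this and every other list were chosen with earlier results of these data known, so list shares are descriptions without a test. At an unadjusted p under 0.05, 3 were higher (8.82%, against 5.46% of all genes) and 0 lower, and 0 passed the adjusted threshold.

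RNF144B, a ubiquitin ligase of the RING type, read 5.65, 5.62 and 6.09 in paced septum, 4.07, 4.24 and 4.39 in paced free wall, 5.47, 4.74 and 5.06 in control septum, and 4.99, 4.16 and 4.32 in control free wall. The regions overlapped in control pigs only. The difference of RNF144B was 2.11-fold (log2 1.08, SE 0.17, limma adjusted p = 0.0950). GRAMD1B, a carrier of cholesterol between membranes, stood at 1.02 (SE 0.22), with 1.60 in paced and 0.44 in control pigs. PDIA2, a protein disulfide isomerase, read 5.82, 5.75 and 5.73 in paced septum, 4.87, 4.92 and 5.02 in paced free wall, 5.99, 5.86 and 5.71 in control septum, and 5.32, 5.64 and 5.12 in control free wall. Its regions were apart (log2 0.66, SE 0.10, limma adjusted p = 0.0812), but a second PDIA2 probe set stood at 0.00 (SE 0.14).

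A pair of transcription factors of the forkhead family lay on opposite sides. FOXP2 read 5.25, 6.07 and 4.81 in paced septum, 6.92, 6.80 and 6.71 in paced free wall, 6.68, 6.56 and 5.27 in control septum, and 6.96, 6.70 and 6.82 in control free wall. Every septum array was below every free wall array, and here the septum arrays were the more scattered (SD 0.77 against 0.11). The difference of FOXP2 was 2.06-fold (log2 -1.04, SE 0.25, limma adjusted p = 0.309). FOXO1 stood at 0.48 (SE 0.12).

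By the rule for named genes, 15 genes in each direction were taken for their size among those at an unadjusted p under 0.01 whose regions did not overlap within either treatment. Of the genes outside uncharacterised loci, 63 met these conditions on the higher side and 18 on the lower side. Over all genes the regions did not overlap within either treatment, in the same direction, at 104 on the higher side (1.04%) and 48 on the lower side (0.48%). None of the 30 named genes passed (limma adjusted p-values from 0.0661 to 0.455). Beside those described, the higher ones were RNF150, a RING finger protein (log2 0.74, SE 0.14), ECHDC2 (0.57, SE 0.14), the crosslinking enzyme transglutaminase TGM2 (0.48, SE 0.11), FAM160A2, ADAMTS3, a protease that processes procollagen, the cyclin CCNY, DEXI, TMEM127 and TINAGL1, a matrix protein of blood vessels. Their folds ran down to 1.35. A second probe set of ECHDC2 stood at 0.58 and a second one of TGM2 at 0.49.

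TMEM127, a membrane protein of the endosome and lysosome, had the tightest separation of these. It read 6.54, 6.30 and 6.60 in paced septum, 5.92, 6.05 and 6.06 in paced free wall, 6.48, 6.30 and 6.33 in control septum, and 5.92, 5.95 and 5.97 in control free wall. The free wall arrays were close together, all below the septum arrays. The difference of TMEM127 was 1.36-fold (log2 0.45, SE 0.08, limma adjusted p = 0.199), with 0.47 in paced and 0.42 in control pigs. CCNY read 9.18 to 9.52 in septum and 8.70 to 9.13 in free wall.

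On the lower side the differences were smaller, apart from FOXP2. CCDC34 read 3.63 to 4.07 in septum and 4.16 to 4.77 in free wall (log2 -0.49, SE 0.11). UPF3B, a factor of nonsense-mediated mRNA decay, read 5.70 to 6.19 in septum and 6.24 to 6.52 in free wall (log2 -0.38, SE 0.09). EID1, an inhibitor of the acetyltransferase p300, read 5.98 to 6.29 in septum and 6.37 to 6.51 in free wall (log2 -0.31, SE 0.08). These 3 genes and FOXP2 were the 4 of 15 with no overlap over all 6 against 6 arrays, against 10 of 15 on the higher side. Over all genes such separation was seen for 65 (0.65%), 48 higher (0.48%) and 17 lower (0.17%). The 15 genes on each side were chosen for no overlap within either treatment, so their counts are not independent of the choice. The translation initiation factor EIF5B stood at -0.28 (SE 0.08), the splicing regulator NSRP1 at -0.38 (SE 0.10), the membrane-to-actin linker radixin (RDX) at -0.36 (SE 0.09), the sialyltransferase ST3GAL6 at -0.36 (SE 0.10) and the inositol transporter SLC2A13 at -0.28 (SE 0.07). CCDC91, SOGA3, ENOX2, PRRG1, RNF217 and C4H8orf46 lay between -0.45 and -0.37. C4H8orf46 averaged 2.99 in septum, under the cut of 2.998 for dim probe sets, and 3.36 in free wall. It was thus tested through its free wall signal.

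**Figure D2:**
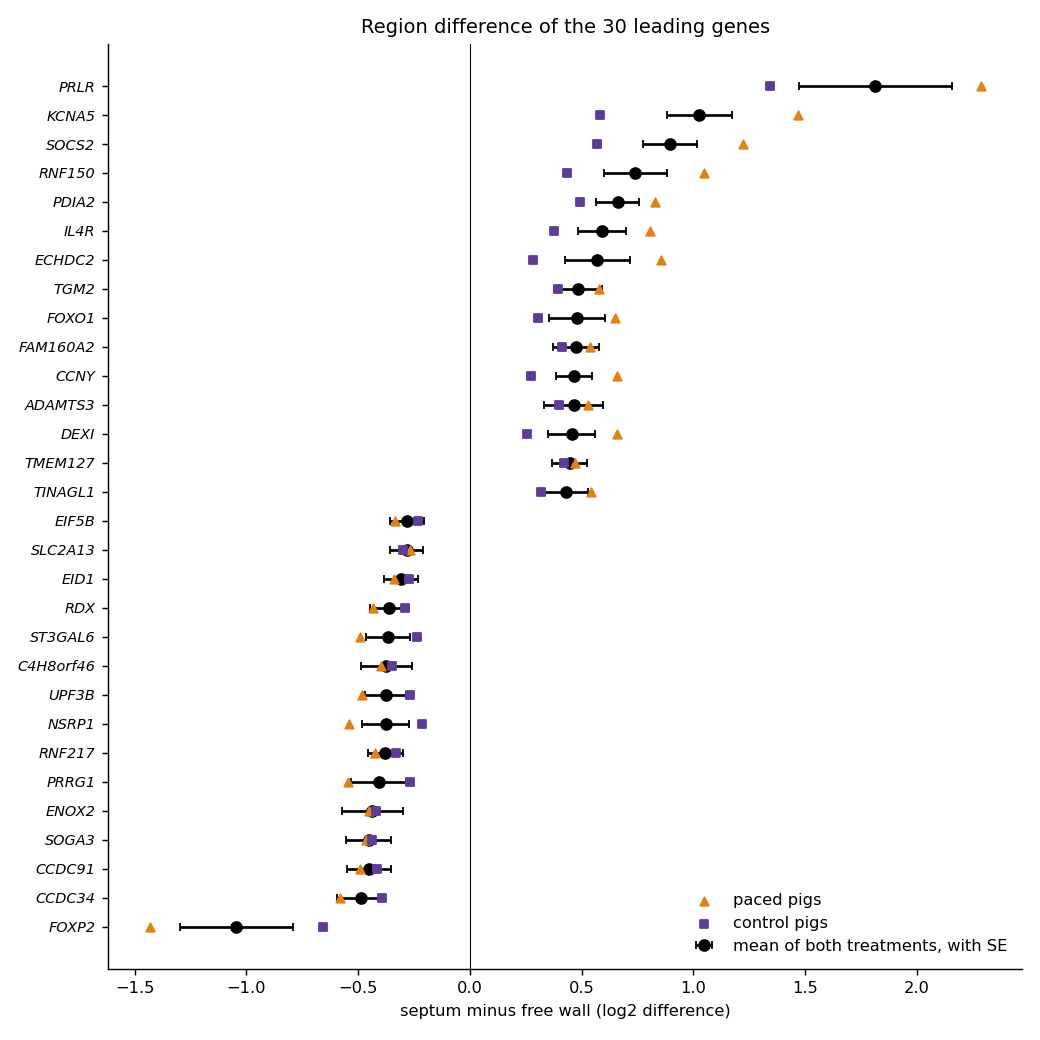
Septum minus free wall log2 difference (horizontal axis) of the 30 genes named by the rule, with triangles for paced pigs, squares for control pigs and black points with bars for the mean of both and its SE. PRLR stands at 1.81 and FOXP2 at -1.04, and the triangle lies farther from 0 than the square for 29 of the 30 genes. The genes were chosen by the mean of both treatments, so this count is not independent of the choice.

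The region difference was larger in paced than in control pigs for 29 of these 30 genes, with SLC2A13 the exception. The 30 genes were chosen from these same values by the mean of both differences, so the count is not independent of the choice. Over all genes tested the median size was 0.12 in paced and 0.11 in control pigs. Over all genes of the same sign the region difference was larger in paced pigs for 3248 of 5814 (55.9%). The difference between treatments was tested as an interaction, and 0 of 20668 probe sets passed (0%, limma, smallest adjusted p = 0.999). The unadjusted p was under 0.05 for 569 (2.75%). Among the genes shown, the interaction was 0.89 for KCNA5 (SE 0.29, unadjusted p = 0.00984), 0.95 for RNF144B (SE 0.33, 0.0148), 0.65 for SOCS2 (SE 0.24, 0.0201) and 1.16 for GRAMD1B (SE 0.45, 0.0235), each with a limma adjusted p = 0.999. For PRLR and XDH it was 0.94 (SE 0.68) and 1.64 (SE 1.26), and for LOC100737875 it was -0.09 (SE 0.24). A missed threshold does not show that the region difference was equal in both treatments.

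The 2 differences share no array, so one can be set against the other. Across the 10007 genes, which are not independent, the differences in paced and in control pigs had a Pearson r of 0.27 and a Spearman rho of 0.23, a description without a test. Leaving out free wall paced array 2 gave an r of 0.49, septum paced array 3 gave 0.11, free wall paced array 1 gave 0.09 and free wall paced array 3 gave 0.15; without any of the other arrays it was between 0.21 and 0.34. Of 176 genes at an unadjusted p under 0.01 in paced pigs, 153 had the same sign in control pigs (86.9%), and of 40 such genes in control pigs, 30 had the same sign in paced pigs (75%). The share over all genes was 58.1%. No probe set passed within paced pigs or within control pigs alone (0 by limma in each).

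**Figure D3:**
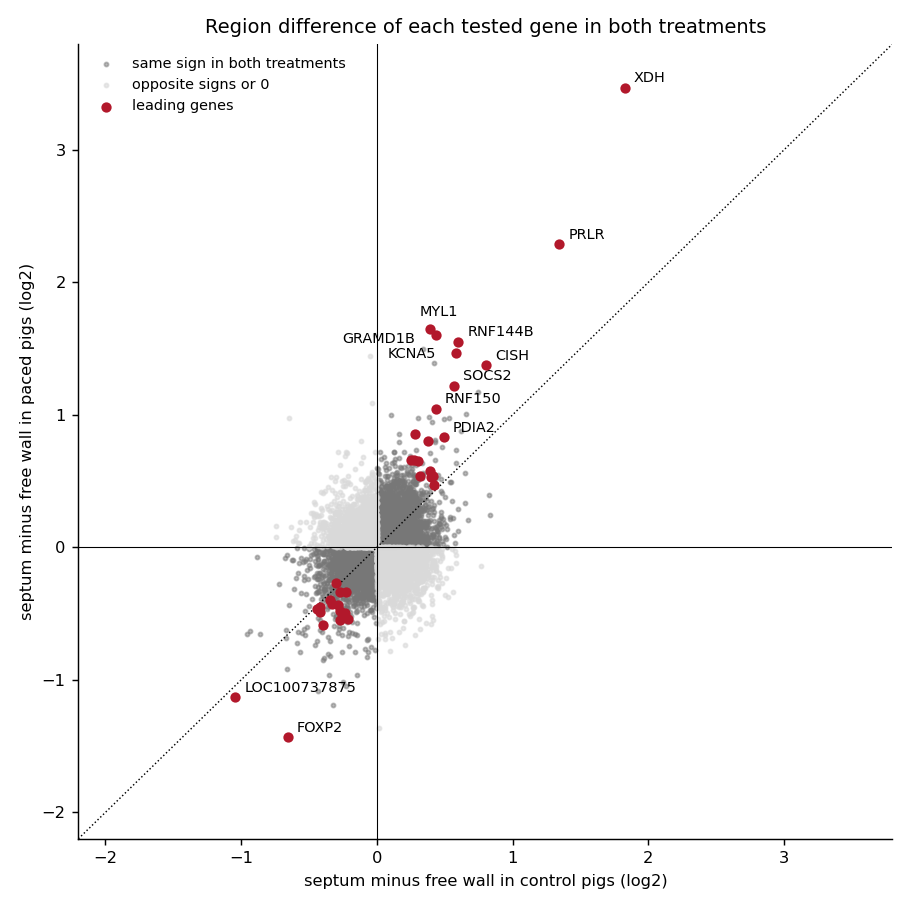
Septum minus free wall log2 difference of each of 10007 genes in control pigs (horizontal axis) and in paced pigs (vertical axis), with genes of the same sign in dark grey and, in red, the 30 named genes with those over 2-fold. Most genes lie within 0.5 of 0, and XDH (1.83 in control, 3.47 in paced) and PRLR (1.34, 2.29) lie farthest out.

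Transcription factors that pattern the heart were mostly close in both regions. Of 47 tested, 25 were above 0 and 22 below, with a median of 0.02, and 2 reached an unadjusted p under 0.05, both higher (4.26% of the list, against 5.46% of all genes). These were GATA6 and HAND2. GATA6, a factor of heart muscle and outflow tract, read 10.34, 10.16 and 10.28 in paced septum, 9.31, 9.55 and 9.78 in paced free wall, 10.05, 10.21 and 9.86 in control septum, and 9.86, 9.74 and 9.35 in control free wall. The regions touched at 9.86 in control pigs, and the difference of GATA6 was 0.55 (SE 0.11, limma adjusted p = 0.269). HAND2, a factor known for the right ventricle, read 6.73 to 7.07 in septum and 6.41 to 6.72 in free wall (log2 0.30, SE 0.08). NKX2-5 stood at 0.29 (SE 0.13) and TEAD4 at 0.23 (SE 0.11).

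TBX5, which marks the left ventricle and the septal boundary in mouse embryos, stood at -0.07 (SE 0.08), and TBX20 at 0.11 (SE 0.07). IRX3, a factor of the conduction system in mouse, stood at -0.01 (SE 0.11) and IRX4, a ventricular factor, at -0.06 (SE 0.12), and both signs turned in some alternatives. TBX5, IRX3 and IRX4 had opposite signs in the 2 treatments and so are not among the 5814. HAND1 averaged 2.50, under the cut, and was not tested, and IRX1 and IRX2 were not analysed here.

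Most contractile genes stood above 0. Of 32 tested genes of the sarcomere and Z-disc 23 were above 0 (71.9%, against 54.1% of all genes), with a median of 0.09 (0.09 in paced and 0.08 in control pigs), and 7 reached an unadjusted p under 0.05, all higher (21.9%, against 5.46% of all genes). MYOM2, a protein of the M-band, read 10.74 to 11.18 in septum and 10.25 to 10.75 in free wall (log2 0.49, SE 0.11, limma adjusted p = 0.269). The myosin-binding protein MYBPC3 stood at 0.28 (SE 0.08), the Z-disc protein LDB3 at 0.34 (SE 0.12) and FHL2 at 0.28 (SE 0.10). FHL2 differed by 0.56 in paced and 0.01 in control pigs, so its mean comes from the paced pigs. List means, after each gene was centred on its own mean, were 0.03, 0.10 and -0.02 in paced septum, -0.03, -0.06 and -0.07 in paced free wall, 0.18, -0.03 and 0.04 in control septum, and 0.00, -0.05 and -0.10 in control free wall. The regions were apart in paced pigs and overlapped in control pigs. The list median ranged from 0.06 to 0.11 over the alternatives. Cardiomyocyte markers as a list were above 0 for 7 of 11, with a median of 0.05.

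The haemodynamic stress and fetal programme had 13 of 19 genes above 0 (68.4%, against 54.1% of all genes). Its median was 0.14 (0.10 to 0.14 over the alternatives), with 0.15 in paced and 0.08 in control pigs. XIRP1, a stress-responsive actin-binding protein of the intercalated disc, stood at 0.62 (SE 0.26) and MYL7, the light chain of atrial myosin, at 0.61 (SE 0.25), and both overlapped between regions. MYL7 is also in the list of atrial and conduction cardiomyocyte markers. Of the 15 tested members of that list 7 were above 0 and 8 below, with a median of -0.005. The skeletal light chain MYL1 read 6.66, 4.23 and 6.33 in paced septum, 2.67, 4.61 and 4.99 in paced free wall, 3.98, 4.70 and 2.59 in control septum, and 2.39 to 4.70 in control free wall. It was high on 2 arrays, and its 2.03-fold difference (log2 1.02, SE 0.58) was within that scatter (limma adjusted p = 0.719).

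Immediate early and stress genes were above 0 for 17 of 22 (77.3%, against 54.1% of all genes), with a median of 0.20 (0.20 in each treatment). At an unadjusted p under 0.05 were 5, all higher (22.7%, against 5.46% of all genes). The small heat shock protein HSPB8 stood at 0.31 (SE 0.09), JUN at 0.32 (SE 0.11), GADD45G at 0.32 (SE 0.11) and FOS at 0.25 (SE 0.11). JUN and HSPB8, 2 of the 22, did not overlap between regions within either treatment. Over all genes this was so for 1.04% on the higher side. List means were 0.15, 0.08 and 0.07 in paced septum, 0.06, -0.37 and 0.12 in paced free wall, -0.00, -0.02 and 0.26 in control septum, and -0.12, -0.11 and -0.11 in control free wall. Free wall paced array 2, which stood apart from the rest, was the lowest, and without it the list median was 0.12.

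Vascular endothelial markers were above 0 for 13 of 15 (86.7%, against 54.1% of all genes), and 3 reached an unadjusted p under 0.05, all higher (20%, against 5.46% of all genes). Like the other lists, this one was chosen with earlier results of these data known, so its shares are a description. Their median was 0.16, with 0.24 in paced and 0.06 in control pigs, and 7 of 15 had the same sign in both treatments (46.7%, against 58.1% of all genes). The blood clotting factor VWF stood at 0.26 (SE 0.10), and the junction proteins CLDN5 and ESAM at 0.34 (SE 0.14) and 0.32 (SE 0.14). List means were 0.28, 0.02 and 0.15 in paced septum, -0.02, -0.32 and 0.11 in paced free wall, -0.19, 0.10 and 0.11 in control septum, and -0.33, 0.06 and 0.03 in control free wall. The regions overlapped in each treatment, and without free wall paced array 2 the list median was 0.09. Of the 34 tested collagens and matrix genes, 18 were above 0 and the median was 0.01. COL4A1, a collagen of basement membranes, read 6.37 to 6.54 in septum and 6.15 to 6.25 in free wall (log2 0.27, SE 0.06, limma adjusted p = 0.305), with 0.26 in paced and 0.28 in control pigs. COL4A2, its partner chain, stood at 0.20 (SE 0.07) and perlecan (HSPG2) at 0.31 (SE 0.11), and these 3 were named for their small p within that list.

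Most fibroblast markers stood below 0, 11 of the 15 tested (over all genes 45.6% were), with a median of -0.16 (-0.26 to -0.09 over the alternatives). The median was -0.02 in paced and -0.28 in control pigs, and 12 of 15 had the same sign in both (80%, against 58.1% of all genes). Of the 15, 2 reached an unadjusted p under 0.05, both lower (13.3%, against 2.84% of all genes). MGP, an inhibitor of calcification, stood at -0.42 (SE 0.14) and the matrix proteoglycan decorin (DCN) at -0.31 (SE 0.12), with the same difference in paced and control pigs (-0.31 in each). List means were 0.13, 0.14 and -0.19 in paced septum, 0.30, -0.05 and 0.07 in paced free wall, -0.36, 0.22 and -0.33 in control septum, and -0.33, 0.26 and 0.14 in control free wall. The regions overlapped in both treatments. Both control arrays with the number 1 were low, in septum (-0.36) and free wall (-0.33) alike. Septum control array 3 was also low (-0.33), while free wall control array 3 was not (0.14). Matrix remodelling enzymes split, with 9 above and 16 below 0: the membrane protease MMP16 stood at -0.47 (SE 0.14) and the collagen-modifying PLOD2 at -0.44 (SE 0.15), but MMP15 at 0.26 (SE 0.09) and PLOD1 at 0.19 (SE 0.08).

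**Figure D4:**
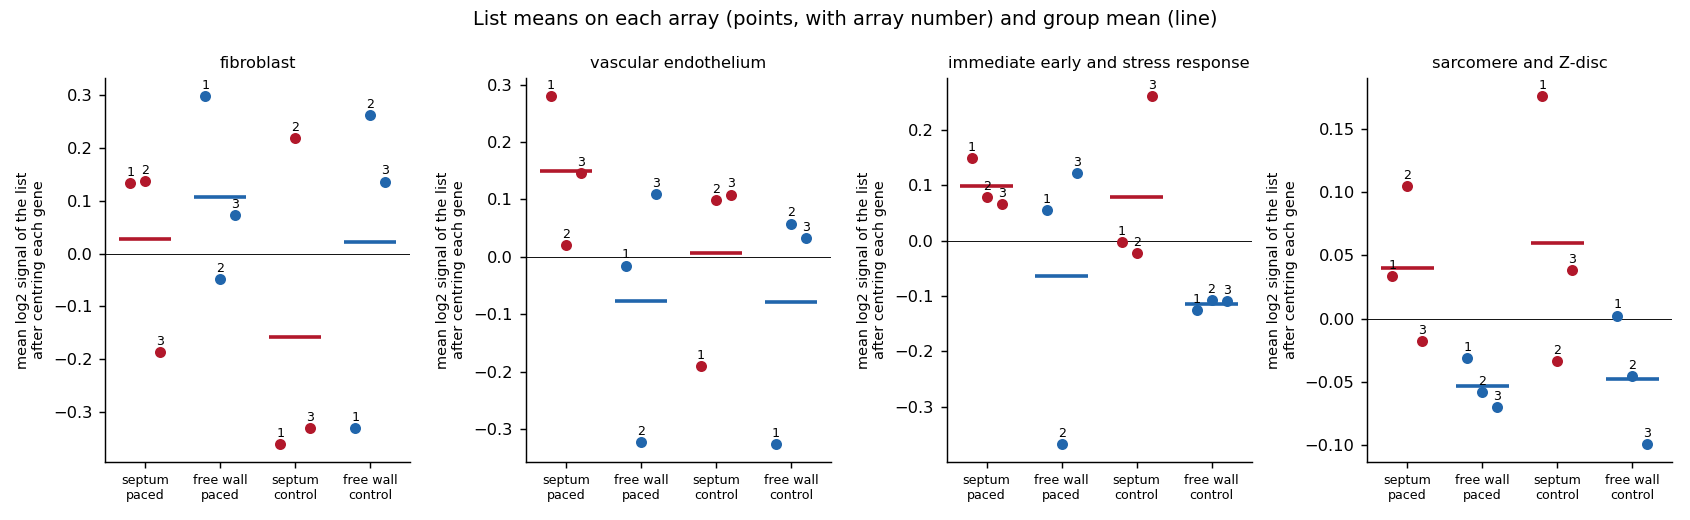
Mean log2 signal of 4 gene lists on each array after each gene was centred on its own mean (vertical axis), in septum and free wall of paced and then control pigs, with points numbered by array and a line at each group mean. Free wall paced array 2 is the lowest paced array for the vascular endothelium (-0.32) and immediate early (-0.37) lists, and the fibroblast list overlaps between regions.

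Adrenergic, endothelin and angiotensin signalling genes held large differences on both sides, with 17 of 31 above 0 and a median of 0.02. PDE4B, which breaks down cyclic AMP, read 9.30 to 10.13 in septum and 8.60 to 9.74 in free wall (log2 0.75, SE 0.18, limma adjusted p = 0.299). The ADP receptor P2RY1 stood at -0.66 (SE 0.16) and the alpha-adrenergic receptor ADRA1B at -0.48 (SE 0.11), while the adenylyl cyclase ADCY6 stood at 0.24 (SE 0.10). ADRA1B differed by -0.79 in paced and -0.16 in control pigs. Among TGF-beta and BMP genes, of which 15 of 27 were above 0, myostatin (MSTN), a brake on muscle growth, stood at 0.96 (SE 0.37) and the receptor BMPR1B at -0.79 (SE 0.36). A second BMPR1B probe set stood at -0.24 (SE 0.17).

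Genes of glycolysis and glucose uptake were above 0 for 12 of 21 (57.1%, against 54.1% of all genes). At an unadjusted p under 0.05, 4 were higher (19%, against 5.46% of all genes) and 1 lower (4.76%, against 2.84%). PYGM, the glycogen phosphorylase of muscle, read 9.71 to 10.14 in septum and 9.44 to 9.63 in free wall (log2 0.33, SE 0.09, limma adjusted p = 0.358). Glycogen synthase GYS1 stood at 0.33 (SE 0.13) and GPI at 0.25 (SE 0.11), while lactate dehydrogenase LDHA stood at -0.36 (SE 0.14). Among 25 genes of fatty acid use 17 were above 0, with the uncoupling protein UCP2 at 0.37 (SE 0.11) and the dehydrogenase ACADS at 0.22 (SE 0.08). Respiratory chain genes had a median of 0.01, with 11 of 21 above 0.

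In none of the 32 lists did a member pass the adjusted threshold (0 of 569 tested genes by limma). Of retinoic acid and FGF genes, DHRS3, a retinal reductase, stood at 0.35 (SE 0.09), FGF16 at 0.40 (SE 0.12) and FGF9 at -0.37 (SE 0.16), with 12 of 25 of that list above 0. Mesothelium and epicardium markers had a median of 0.125 (0.04 to 0.16 over the alternatives), with 6 of 9 above 0. Their median was 0.12 in paced and 0.003 in control pigs, and 0 of the 9 reached an unadjusted p under 0.05. Adipocyte markers were above 0 for 11 of 15 (73.3%, against 54.1% of all genes), with a median of 0.06. At an unadjusted p under 0.05, 3 adipocyte markers were higher (20%, against 5.46% of all genes) and 0 lower. These were ADIPOR2, PNPLA2 and LPL, and LPL is also in the list of fatty acid use. Of the 15, 7 had the same sign in both treatments (46.7%, against 58.1% of all genes). The adipocyte median ranged from 0.03 to 0.16 over the alternatives. Lists with medians between -0.06 and 0.06 included calcium handling, WNT signalling, macrophages, lymphocytes, smooth muscle, neurons, the interferon-stimulated genes and the clock. A median near 0 can average opposite differences. For macrophages it was 0.11 in paced and -0.10 in control pigs, with 4 of 15 markers of the same sign (26.7%, against 58.1% of all genes). For the interferon-stimulated genes it was 0.06 and -0.13, with 9 of 22 of the same sign (40.9%).

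**Figure D5:**
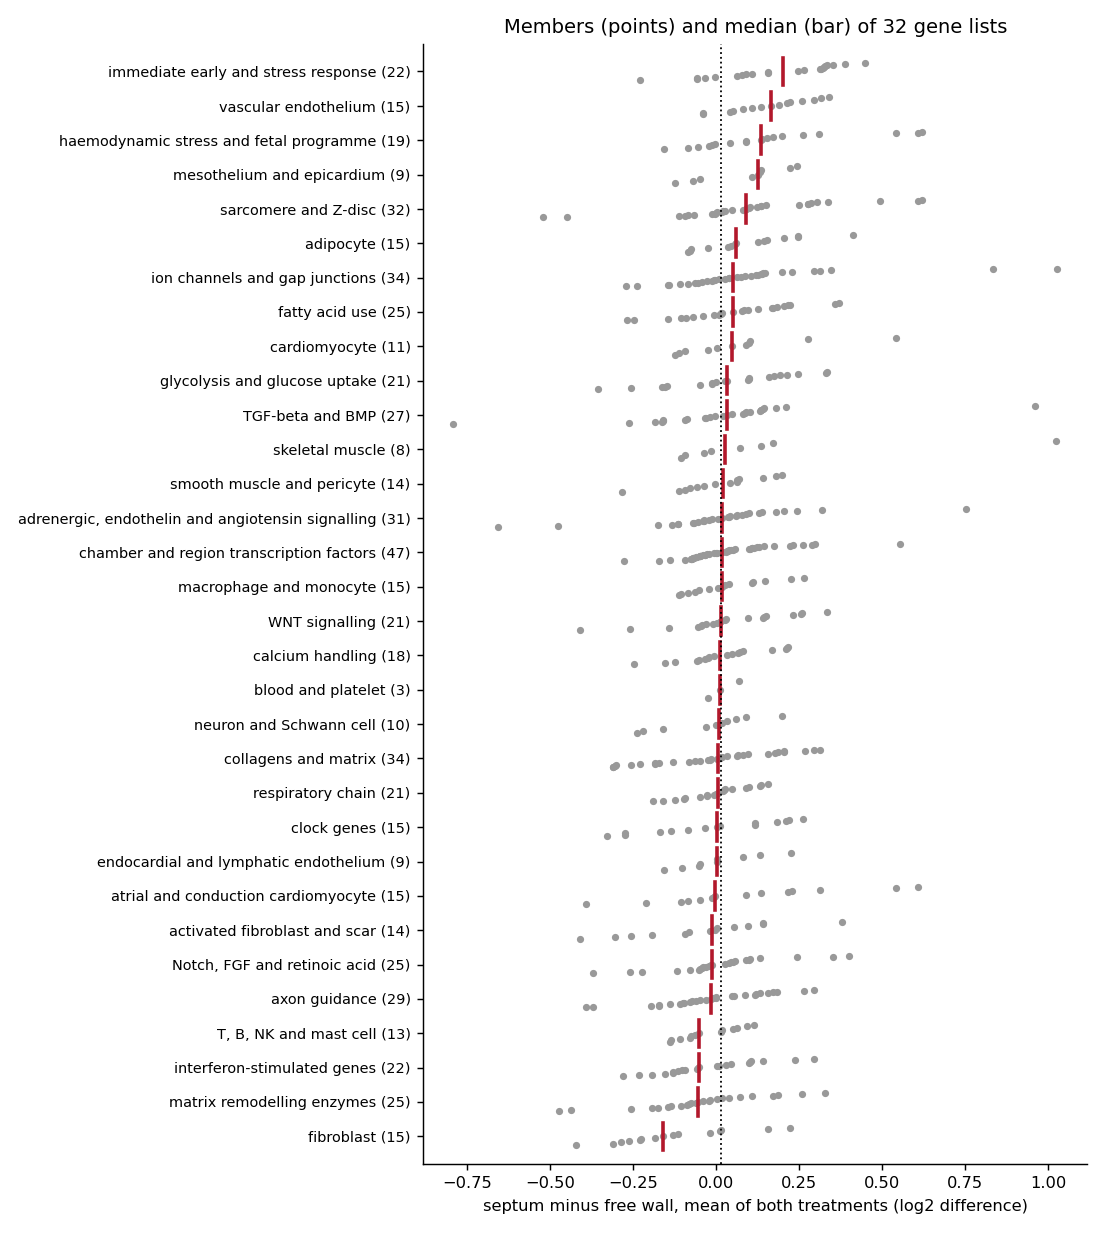
Septum minus free wall log2 difference, mean of both treatments (horizontal axis), of the tested members of 32 gene lists (points, number tested in parentheses), with a red bar at each list's median and a dotted line at the median of all genes. Medians run from -0.16 for fibroblast markers to 0.20 for immediate early and stress genes.

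The filter on dim probe sets had its cut at a mean of 2.998. The genes just inside were FAM216B, TACR2 and UGGT2 (at most 3.002), and P2RY10, LCN15 and RNF208 stood just outside (2.998 each).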

How the data were processed

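Total RNA of 12 pig left ventricle samples (Trizol, biotin label) was measured on Affymetrix arrays, per the labels. The authors deposited log2 values, summarised by RMA in Affymetrix Expression Console 1.4, per the submitters' processing notes. Build and annotation: not given in the sources used here. Of 27558 probe sets, 13680 had a listed gene: 13323 with 1 symbol and 357 with several, which were not named. RefSeq genes of Sscrofa11.1 brought 7 symbols up to date.

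Probe sets with a mean above the 25th percentile were tested (20668), and each gene was taken by its brightest probe set (10007 genes, 689 with several probe sets). A linear model with 1 mean per group was fitted to all 12 arrays (limma 3.58.1, R 4.3.3), with 8 residual and 3.68 prior degrees of freedom, two-sided, with Benjamini-Hochberg adjustment over all tested probe sets and calls at an adjusted p under 0.05. The shared region difference is the mean of the septum minus free wall differences in paced and control pigs. Regions were not paired, since the labels name no animal.

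Named genes were, in each direction, the 15 with the largest difference among called genes, then among those with p under 0.01 before adjustment whose regions did not overlap within either treatment, leaving out uncharacterised loci. Up to 4 members of each list with the smallest p were also named, with a fixed set of transcription factors. The lists held 908 genes, of which 643 were matched and 569 tested. Members and lists were chosen with earlier results of these data known. Lists were described by counts and medians, without a test. Alternatives changed the filter, weights, prior, normalization, model and arrays. Arrays have no count depth, so their number limits the precision. The code was tested on simulated data. Figures were drawn with matplotlib 3.10.9.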

Additional observations from a re-analysis of the deposited data

Results flagged for a closer look

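MSR1, a scavenger receptor of macrophages, had region differences of opposite sign in the treatments, with every array on its side. It read 3.75, 3.55 and 3.56 in paced septum against 3.43, 3.27 and 3.38 in paced free wall, and 4.12, 3.77 and 3.40 in control septum against 4.19, 4.34 and 4.21 in control free wall. The septum minus free wall difference was 0.26 in paced and -0.48 in control pigs, and the difference between them was 0.74 on the log2 scale (SE 0.22, limma unadjusted p = 0.00648, adjusted p = 0.999), so it did not pass over all probe sets. MSR1 is therefore not among the genes of the same sign.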

How the results depend on the processing

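The count of probe sets called for the shared region difference was 2. It was 1 with the filter at the 50th percentile, 4 with array weights, 4 with an intensity trend in the prior, 1 with an additive fit, 1 with quantile normalization repeated and 0 with array SD as a covariate (smallest adjusted p = 0.0549). With the number as a replicate block it was 1 (RNF144B, adjusted p = 0.0479), and LOC100737875 (0.0727) and probe set 15347989 (0.149) did not pass. Deviations of same-numbered arrays correlated at 0.0891, -0.173 and -0.181 in paced pigs and at 0.318, 0.252 and 0.245 in control pigs. In the other region, 1 of 6 paced and 5 of 6 control arrays correlated best with their own number, a hint of pairing in control pigs from the data and not from the labels. Septum paced array 2 and free wall paced array 1 were each other's best match, as were septum paced array 1 and free wall paced array 3. The numbers are thus not shown to pair the paced arrays, and the replicate block may not match them by animal. Leaving out 1 array gave 0 to 3 calls: 3 when array 2 of the paced or of the control free wall was left out, 1 for septum control array 3 and for free wall paced array 1, and 0 for each of the other 8. It was 0 without both control arrays with the number 1, 0 without these and free wall paced array 2, and 8 at an adjusted p under 0.1. KCNA5 and SOCS2 passed with array weights (0.0207 each) and the trend (0.0455 each), KCNA5 without free wall paced array 2 (0.0488), and PDIA2 without free wall control array 2 (0.0324). The interaction gave 0 calls in each of its alternatives. IRX3 stood at 0.0183 with the SD covariate, at 0.00667 without free wall paced array 2 and both control arrays with the number 1, and between -0.0692 and 0.0558 without 1 array. IRX4 stood at 0.0117 without those 3 arrays and between -0.135 and 0.0275 without 1 array. Of 2372 values of the 99 genes and probe sets followed, 2327 kept their direction and side of the threshold. Another 28 lost a call, 7 gained one and 10 turned sign. Most of this tally is items not called in the main fit, which kept their side by staying uncalled. Of the 2 calls, LOC100737875 passed in 12 of 24 alternatives and probe set 15347989 in 7 of 23. The causes were not tested.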
